A study of Mus musculus with 9 samples.

Results

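Fibronectin and 8 secreted matrix proteins that act on cells as much as they build the matrix were followed through UVA irradiation of mouse fibroblasts. The 9 genes, Fn1, Tnc, Postn, Sparc, Spp1, Thbs1, Thbs2, Tgfbi and Vcan, were chosen by symbol as 9 of the 56691 genes in the deposited table. RNA of NIH/3T3 cells, an immortal mouse embryonic fibroblast line of wild-type genotype kept in serum-containing medium, was sequenced in 9 libraries, with 3 libraries in each of 3 groups. The co-treated group received UVA at 10 J/cm2 together with alpha-arbutin, a glycosylated hydroquinone, in an order and at a dose not given in the sources used here. The UVA group, whose titles read MOCK and whose treatment entry names the radiation, received 10 J/cm2 of UVA alone. The control group has no treatment entry, and the NC columns of the table were taken as its libraries, since both other prefixes match the titles of the irradiated groups by name. The time between irradiation and harvest, and whether the 3 libraries of a group came from separate cultures, are not given, so p-values measure only the spread between these libraries, which may be technical.

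Fibronectin is a large glycoprotein that cells pull into fibrils through integrins, and these fibrils serve as a scaffold on which collagens and other matrix proteins are laid down. Matricellular proteins such as tenascin C, thrombospondins, SPARC, osteopontin and periostin add little mechanical strength but bind receptors, growth factors and collagen, and so tune adhesion, migration and matrix assembly. In skin, dermal fibroblasts make many of these proteins, and several of them are known from wound repair and fibrosis. UVA is a part of sunlight that reaches the dermis, and the study asks whether alpha-arbutin counters the damage UVA does.

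The libraries held 16298348 to 20862894 counts and 21026 to 21815 genes above 0, and mitochondrially encoded genes took 3.52 to 4.01% of counts. The 10 fibroblast markers summed to 6095 to 6352 counts scaled to a common library total (CPM, defined with the processing) in co-treated, 6383 to 6667 CPM in UVA and 8325 to 8579 CPM in control libraries. Vim, which encodes vimentin, averaged 3397 CPM in co-treated, 3585 CPM in UVA and 2717 CPM in control cells, and was thus abundant in all groups, whereas the proteoglycan genes Dcn, at 22.2 CPM in co-treated, 23.7 CPM in UVA and 21.96 CPM in control cells, and Lum, with at most 5 counts in a library, were low. The other fibroblast markers were lower in irradiated cells except S100a4: Col1a1 averaged 299 CPM in co-treated, 293 CPM in UVA and 956 CPM in control cells, and Thy1 34.6, 32.2 and 72.3 CPM in the same groups. Col1a1, Col1a2, Col3a1, Pdgfra, Pdgfrb and Thy1 fell in both comparisons with control, and Vim rose in both. The 7 macrophage markers, relevant because macrophages also make osteopontin, summed to 8.97 to 10.1 CPM in co-treated, 7.46 to 12.2 CPM in UVA and 8.85 to 11.5 CPM in control libraries, with Adgre1 at 4 counts or fewer. The 5 smooth muscle markers summed to 6.52 to 9.61 CPM in co-treated, 8.51 to 8.89 CPM in UVA and 34.4 to 36.5 CPM in control libraries, most of it from Acta2. The 5 adipocyte markers summed to 15.8 to 19.0, 14.1 to 17.2 and 31.5 to 33.5 CPM in co-treated, UVA and control libraries. The 9 osteoblast and chondrocyte markers summed to 244 to 261, 241 to 273 and 187 to 191 CPM in co-treated, UVA and control libraries, most of it from Sox9. Endothelial markers (5 genes) and epithelial markers (6 genes) stayed at or under 6.73 CPM in every library. The part of the marker shifts in the results on the 9 genes was not tested, and in libraries of a whole culture fewer cells of a kind and less RNA per cell cannot be told apart.

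In control cells the 9 genes spanned more than 3 orders of magnitude in level, given as FPKM, the authors' counts scaled to the exonic size of the gene and to the library total. Spp1, which encodes osteopontin, a phosphorylated integrin ligand, was the highest, at 557 ± 16.4 FPKM (SD, n = 3), rank 44 among the 14151 genes with enough counts to test. Fn1 followed at 351 ± 7.95 FPKM, Sparc at 229 ± 3.32 FPKM and Thbs1 at 187 ± 5.61 FPKM. Tnc at 74.2 ± 2.18 FPKM and Vcan at 74.0 ± 0.909 FPKM overlapped between libraries, and every other neighbouring pair in the order was separated in all 3 control libraries. Thbs2 averaged 34.3 ± 0.923 FPKM, Tgfbi 3.65 ± 0.266 FPKM and Postn 0.163 ± 0.0313 FPKM. Periostin RNA was thus near the limit of detection in this line, with 29, 25 and 24 counts in the control libraries.

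The order of levels differed in irradiated cells mainly through 1 gene. Thbs1 was the fourth highest of the 9 in control cells, and in UVA cells its libraries overlapped those of Vcan, Tnc and Thbs2. In co-treated cells the Thbs1 libraries overlapped those of Tnc and stayed above those of Thbs2. Spp1 stood above Fn1, and Fn1 above Sparc, in all 3 groups. The 9 genes together took 0.653% ± 0.0254 of all counts in co-treated, 0.644% ± 0.0225 in UVA and 0.893% ± 0.0139 in control libraries (SD, n = 3 each). Fn1 alone took 0.279% ± 0.0172, 0.267% ± 0.0126 and 0.410% ± 0.00929 of counts in co-treated, UVA and control libraries, with an exonic size of 11685 bases, against 1648 bases for Spp1.

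**Figure D1:**
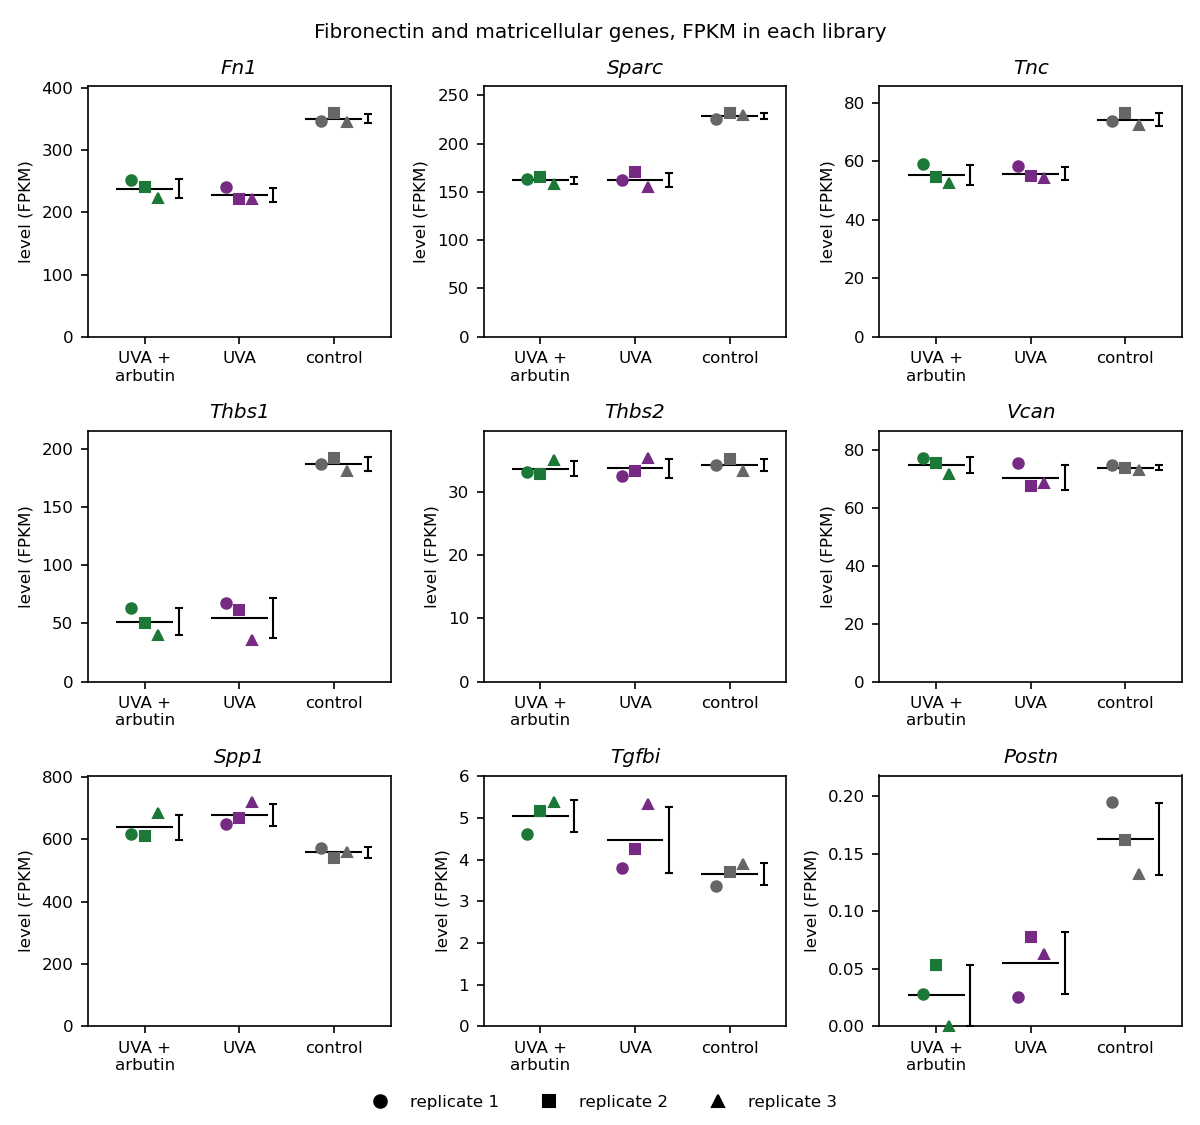
Level of each of the 9 genes in FPKM (vertical axis, linear, starting at 0) in UVA plus arbutin, UVA and control libraries. Each symbol is 1 library, with the shape giving its replicate number, the horizontal line is the mean of 3 libraries and the bar beside it is ± 1 SD. Fn1, Sparc, Tnc and Thbs1 lie lower in both irradiated groups than in every control library, Thbs2 and Vcan lie at similar heights in all groups, and the 3 UVA libraries of Thbs1 spread between 35.3 and 67.8 FPKM.

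Irradiation changed 7 of the 9 genes: 5 fell and 2 rose in UVA against control cells, and Thbs2 and Vcan did not pass the test. The test was edgeR's quasi-likelihood F-test across all 14151 genes, and a gene was called where its p, adjusted by the Benjamini-Hochberg method over the whole table, was under 0.05. In the table as a whole 14.6% were called lower and 14.7% higher, so the share of the 9 called lower lay above that of the table and the share called higher near it. The median log2 fold change of the 9 genes was -0.39, against 0.0029 for all tested genes. Postn passed the filter on low counts only through the control libraries, where it had to be high, and without it 4 of 8 genes fell, with a median of -0.22. In 6 of the 9 genes the UVA and control libraries did not overlap, against 42% of all tested genes, and without Postn in 5 of 8.

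Fn1 (ENSMUSG00000026193, mm39 chr1:71624679-71692359, minus strand) encodes fibronectin. Its level was 241, 222 and 222 FPKM in the UVA libraries and 347, 360 and 346 FPKM in the control libraries. The groups did not overlap, and the highest UVA library lay more than 100 FPKM below the lowest control library. The log2 fold change was -0.61 ± 0.04 (SE; 95% interval -0.69 to -0.53; edgeR adjusted p = 1.14e-12), which places UVA cells at 65.7% of the control level (95% interval 62.1 to 69.5%). The gene overlaps Apol7d on the other strand, which had 85 counts over the 9 libraries, or 0.0164% of the counts of Fn1.

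Sparc (ENSMUSG00000018593, chr11:55285326-55314009, minus strand) encodes a collagen-binding glycoprotein, also called osteonectin, that takes part in collagen processing and fibril assembly. It measured 162, 170 and 156 FPKM in UVA and 225, 232 and 229 FPKM in control libraries. All UVA libraries were below all control libraries, with a log2 fold change of -0.48 ± 0.04 (edgeR adjusted p = 6.12e-11). Tnc (ENSMUSG00000028364, chr4:63878022-63965252, minus strand) encodes tenascin C, a hexameric glycoprotein that binds fibronectin and loosens cell adhesion to it. It measured 58.3, 55.0 and 54.2 FPKM in UVA and 73.7, 76.6 and 72.4 FPKM in control libraries. The groups were again separate, with a log2 fold change of -0.39 ± 0.04 (edgeR adjusted p = 2.38e-08). Tnc overlaps 8030451A03Rik on the other strand, whose counts came to 0.241% of those of Tnc.

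Thbs1 (ENSMUSG00000040152, chr2:117942357-117957614, plus strand) encodes thrombospondin 1, a trimeric glycoprotein that activates latent TGF-beta and restrains angiogenesis through CD36 and CD47. It measured 67.8, 61.4 and 35.3 FPKM in UVA and 187, 192 and 181 FPKM in control libraries. UVA replicate 3 was well below the other UVA libraries, and even the highest UVA library was far below the lowest control library. The log2 fold change was -1.75 ± 0.13 (95% interval -2.03 to -1.48; edgeR adjusted p = 3.44e-11), a level of 29.6% of control (24.5 to 35.9%). edgeR draws the spread of each gene toward that of all genes. For Thbs1, whose SD of log2 CPM was 0.511 in UVA libraries, this SE and interval are likely too narrow. Leaving out 1 library at a time moved the log2 fold change between -1.94 and -1.51. Without the libraries numbered 3 of all groups, an alternative chosen after seeing the data, it was -1.53. Its rank among the 9 genes rests on UVA replicate 3: with all libraries its change exceeded the -1.53 of the sparsely counted Postn, whereas Postn was at -1.65 and Thbs1 at -1.51 without UVA replicate 3, and at -1.79 and -1.53 without all libraries numbered 3.

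The spread of Thbs1 was itself unequal between groups. The coefficient of variation was 22.8% in co-treated and 31.4% in UVA libraries, and the SD of log2 CPM was 0.330 in co-treated, 0.511 in UVA and 0.0399 in control libraries. In the UVA group 93.6% of tested genes had a smaller SD than Thbs1, in the co-treated group 85.6%, and in the control group 22.03%. The lowest Thbs1 library was replicate 3 in all 3 groups, at 40.1 FPKM in co-treated, 35.3 FPKM in UVA and 181 FPKM in control cells. The part of the replicate number in this spread was not tested.

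Thbs2 (ENSMUSG00000023885, chr17:14885762-14914497, minus strand) encodes thrombospondin 2, which has the same domain order as thrombospondin 1 and is known for its role in collagen fibril formation. It measured 32.5, 33.3 and 35.5 FPKM in UVA and 34.2, 35.3 and 33.4 FPKM in control libraries. The groups overlapped, and the log2 fold change was -0.01 ± 0.04 with a 95% interval of -0.09 to 0.08 (edgeR adjusted p = 0.936), so a change of more than 0.1 in either direction lies outside that interval. The Thbs1 to Thbs2 ratio of FPKM was 1.91, 1.54 and 1.14 in co-treated libraries, 2.08, 1.84 and 0.995 in UVA libraries and 5.47, 5.45 and 5.42 in control libraries. The 3 control ratios were almost equal, and every irradiated library lay far below them. On the log2 scale the ratio was lower by 1.80 in UVA than in control cells, a difference of -1.80, with an exact two-sided permutation p of 0.1, the smallest that 3 against 3 libraries allow, and 0.133 after Benjamini-Hochberg adjustment over 4 ratio tests. The co-treated minus control difference was -1.86 (exact permutation p = 0.1) and the co-treated minus UVA difference -0.06 (exact permutation p = 0.9).

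**Figure D2:**
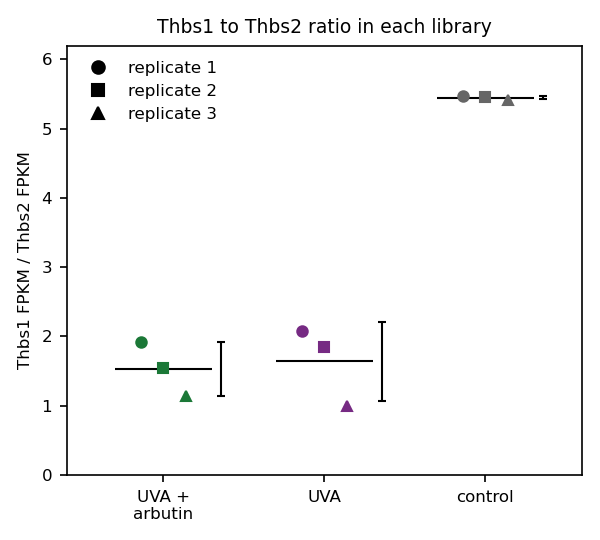
Ratio of Thbs1 to Thbs2 FPKM (vertical axis, linear, starting at 0) in UVA plus arbutin, UVA and control libraries. Symbols are libraries, shapes are replicate numbers, lines are means and bars are ± 1 SD of 3 libraries. The control ratios lie between 5.42 and 5.47 and the 6 irradiated ratios between 0.995 and 2.08.

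Vcan (ENSMUSG00000021614, chr13:89803431-89890628, minus strand) encodes versican, a large chondroitin sulfate proteoglycan that binds hyaluronan and swells the provisional matrix. It measured 75.5, 67.6 and 68.6 FPKM in UVA and 75.0, 74.0 and 73.2 FPKM in control libraries. UVA replicate 1 lay above all control libraries and the other UVA libraries below them, and the log2 fold change was -0.05 ± 0.04 (95% interval -0.13 to 0.03; edgeR adjusted p = 0.347). Without UVA replicate 1 the change was -0.11 and was called (edgeR adjusted p = 0.0350). The adjusted p ran from 0.0350 to 0.732 over the alternatives.

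The 2 genes that rose were Spp1 and Tgfbi. Spp1 (ENSMUSG00000029304, chr5:104582984-104588916, plus strand) measured 647, 669 and 718 FPKM in UVA and 573, 541 and 558 FPKM in control libraries. The groups did not overlap, and the log2 fold change was 0.30 ± 0.04 (edgeR adjusted p = 3.19e-06). Spp1 was thus higher still in UVA cells than in control cells, where it already led the 9 genes. The summed macrophage markers overlapped between the groups while single markers moved both ways: in UVA against control Cd68 was at 0.67 (edgeR adjusted p = 0.0103), Lyz2 at -0.94 and Ptprc at -2.82, each at under 5 CPM in both groups. Ptprc, with 7 counts in all in UVA and 54 in control libraries, passed the filter on low counts only through control. The part of the macrophage markers in the result on Spp1 was not tested. Gm42793, which overlaps Spp1 on the same strand, had 345 counts over the 9 libraries, or 0.207% of those of Spp1.

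Tgfbi (ENSMUSG00000035493, chr13:56757336-56787375, plus strand) encodes a TGF-beta-induced adhesion protein built, like periostin, of fasciclin domains. It measured 3.81, 4.25 and 5.34 FPKM in UVA and 3.36, 3.70 and 3.89 FPKM in control libraries. The lowest UVA library fell within the control range, and UVA replicate 3 was the highest of the 6. The log2 fold change was 0.31 ± 0.11 (95% interval 0.08 to 0.54; edgeR adjusted p = 0.0365), and the call was lost without UVA replicate 3 (0.15, adjusted p = 0.361), without control replicate 1 (adjusted p = 0.151) or control replicate 2 (adjusted p = 0.0754), with DESeq2 (adjusted p = 0.0556), with limma on log2(FPKM + 1) or log2(FPKM + 0.1) (adjusted p = 0.138 and 0.131), and without all libraries numbered 3 (adjusted p = 0.264). Over all alternatives its adjusted p ran from 0.00779 to 0.361.

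Postn (ENSMUSG00000027750, chr3:54268530-54298458, plus strand) encodes periostin, which links collagen, fibronectin and tenascin C in healing tissue. It had 4, 11 and 11 counts in UVA libraries and 29, 25 and 24 in control libraries. The groups were separate, but the counts were few, and the log2 fold change of -1.53 ± 0.48 had a 95% interval of -2.52 to -0.55 (edgeR adjusted p = 0.0159). The call was lost without control replicate 1 (adjusted p = 0.0735) or UVA replicate 1 (adjusted p = 0.0948) and with limma on log2(FPKM + 1) (adjusted p = 0.0666), where the fold change of so low a gene shrinks to -0.14. Over all alternatives its adjusted p ran from 0.00554 to 0.0948. The ratio of Postn to Tgfbi FPKM was 0.00662, 0.0183 and 0.0118 in UVA and 0.0579, 0.0439 and 0.0340 in control libraries, with a log2 difference of -1.97. This is given as a description, since Postn passed the filter only through its control counts. The ratio was not tested in co-treated cells because 1 of their libraries had no Postn count.

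Co-treated and UVA cells showed no called difference in any of the 9 genes. In the co-treated against UVA comparison edgeR called 0 of the 9, and 5 of the 14151 genes tested, which is 0.0353%. At an unadjusted p under 0.05 the same test found 957 genes in all and 1 of the 9, Spp1. DESeq2 also called 0 of the 9, and 10 of all 14151 genes. Both limma fits called 0 of all 14151 genes, so their 0 of the 9 tells nothing particular about these genes. The libraries of the co-treated and UVA groups overlapped for all 9 genes, against non-overlap in 10.8% of all tested genes.

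The intervals show how large a difference could have gone unseen. Fn1 measured 252, 241 and 223 FPKM in co-treated libraries, against 241, 222 and 222 FPKM in UVA libraries. Its log2 fold change was 0.06 with a 95% interval of -0.02 to 0.14 (edgeR adjusted p = 0.841), so the co-treated level was 98.3 to 110.0% of the UVA level within that interval. Sparc measured 163, 165 and 158 FPKM in co-treated and 162, 170 and 156 FPKM in UVA libraries, with a log2 fold change of -0.01 (-0.09 to 0.07). Tnc measured 59.1, 54.6 and 52.6 FPKM in co-treated and 58.3, 55.0 and 54.2 FPKM in UVA libraries, with a log2 fold change of -0.02 (-0.11 to 0.07). For these 3 genes the interval did not reach the size of the UVA change.

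Thbs1 measured 63.5, 50.7 and 40.1 FPKM in co-treated and 67.8, 61.4 and 35.3 FPKM in UVA libraries. The libraries interleaved, and the log2 fold change of -0.10 ± 0.13 had the wide interval of -0.38 to 0.18 (edgeR adjusted p = 0.927). That interval is likely still too narrow, since edgeR draws the spread of each gene toward that of all genes. The SD of log2 CPM of Thbs1 was 0.330 in co-treated and 0.511 in UVA libraries. The sign of the change turned when UVA replicate 1 (0.09) or co-treated replicate 3 (0.05) was left out. Thbs2 measured 33.2, 32.9 and 35.1 FPKM in co-treated and 32.5, 33.3 and 35.5 FPKM in UVA libraries. Vcan measured 77.5, 75.6 and 72.0 FPKM in co-treated and 75.5, 67.6 and 68.6 FPKM in UVA libraries, with a log2 fold change of 0.08 (-0.00 to 0.16; edgeR adjusted p = 0.741).

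Spp1 measured 618, 611 and 684 FPKM in co-treated and 647, 669 and 718 FPKM in UVA libraries. Its log2 fold change of -0.10 (-0.18 to -0.01) had an unadjusted p of 0.0328 and an edgeR adjusted p of 0.701, and so did not pass. Tgfbi measured 4.62, 5.16 and 5.38 FPKM in co-treated and 3.81, 4.25 and 5.34 FPKM in UVA libraries, with a log2 fold change of 0.17 (-0.05 to 0.39). Postn had 4, 8 and 0 counts in co-treated and 4, 11 and 11 counts in UVA libraries, and its interval of -2.36 to 0.31 leaves both a large decrease and a small increase possible at this depth.

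In co-treated against control cells, 5 of the 9 genes fell and 2 rose, with Thbs2 and Vcan again not called. Over all tested genes 12.9% were called lower and 13% higher in this comparison. The co-treated and control libraries did not overlap in 7 of the 9 genes, against 39.7% of all tested genes, and without Postn in 6 of 8. This comparison shares its control libraries with the UVA against control comparison, so the calls of the 2 are not independent of each other. The log2 fold change was -0.55 ± 0.04 for Fn1 (edgeR adjusted p = 9.71e-12), -0.49 ± 0.04 for Sparc, -0.41 ± 0.04 for Tnc and -1.85 ± 0.14 for Thbs1 (edgeR adjusted p = 1.28e-11). The SE of Thbs1 is likely too small here too. Spp1 rose by 0.20 ± 0.04 (edgeR adjusted p = 0.000608) and Tgfbi by 0.48 ± 0.11 (edgeR adjusted p = 0.00157). Unlike in UVA cells, all 3 co-treated libraries of Tgfbi, at 4.62, 5.16 and 5.38 FPKM, lay above the control libraries, although the co-treated against UVA difference was not called. Postn fell by 2.56 on the log2 scale, with 12 counts in all in co-treated and 78 in control libraries (95% interval -3.69 to -1.43; edgeR adjusted p = 0.000785). Leaving out 1 library moved that value between -3.52 and -1.96, and limma on log2(FPKM + 1) gave -0.18, with the call kept in each. Without Postn, which entered the test through the control libraries alone, 4 of 8 genes fell in this comparison.

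**Figure D3:**
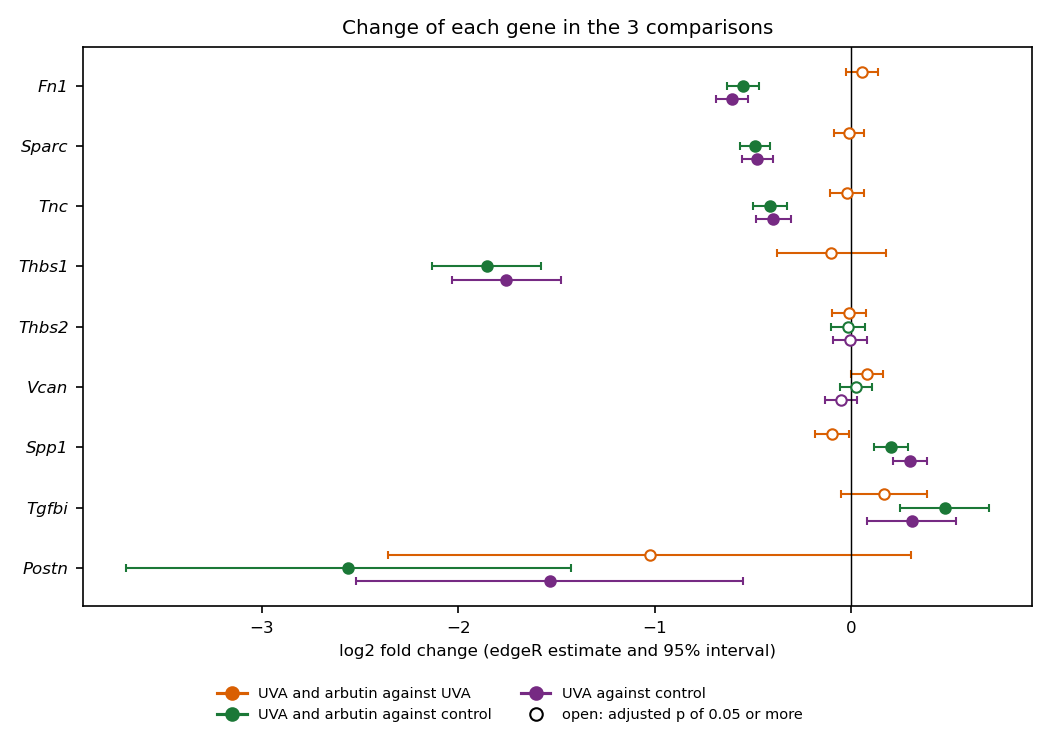
Log2 fold change of each gene (horizontal axis) in the UVA plus arbutin against UVA, UVA plus arbutin against control, and UVA against control comparisons. Points are edgeR estimates, bars are 95% intervals, likely too narrow for Thbs1, and open points have an adjusted p of 0.05 or more. Thbs1 and Postn lie farthest to the left in both comparisons with control, and all 9 points of UVA plus arbutin against UVA are open.

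The promoters of 3 of the genes are shown because 2 of them, Sparc and Tnc, fell in both irradiated groups, while Spp1 rose in both. RefSeq windows on GRCm38.p6, which is not the mm39 build of the gene coordinates above, were found for 7 of the 9 genes and run from 250 bases before to 50 bases after the most 5′ annotated start. Capitals mark matches to TATAAA (the TATA box), GGGCGG (the GC box bound by Sp1) or CCAAT (the NF-Y box), read 5′ to 3′ in the direction of the gene, and a match on the other strand appears as its reverse complement.
Sparc promoter, chr11:55420031-55420330, minus strand: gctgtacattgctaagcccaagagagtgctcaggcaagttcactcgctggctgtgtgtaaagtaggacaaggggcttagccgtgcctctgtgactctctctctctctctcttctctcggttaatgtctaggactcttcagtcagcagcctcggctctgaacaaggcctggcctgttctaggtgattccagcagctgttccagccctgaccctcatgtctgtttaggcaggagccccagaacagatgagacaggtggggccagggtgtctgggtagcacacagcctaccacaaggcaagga
Tnc promoter, chr4:64046966-64047265, minus strand: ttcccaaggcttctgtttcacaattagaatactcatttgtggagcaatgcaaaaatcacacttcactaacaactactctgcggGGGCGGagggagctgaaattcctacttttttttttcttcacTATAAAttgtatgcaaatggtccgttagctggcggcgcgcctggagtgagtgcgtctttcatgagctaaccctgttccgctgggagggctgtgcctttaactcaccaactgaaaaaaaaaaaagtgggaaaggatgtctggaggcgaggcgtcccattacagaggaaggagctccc
Spp1 promoter, chr5:104434861-104435160, plus strand: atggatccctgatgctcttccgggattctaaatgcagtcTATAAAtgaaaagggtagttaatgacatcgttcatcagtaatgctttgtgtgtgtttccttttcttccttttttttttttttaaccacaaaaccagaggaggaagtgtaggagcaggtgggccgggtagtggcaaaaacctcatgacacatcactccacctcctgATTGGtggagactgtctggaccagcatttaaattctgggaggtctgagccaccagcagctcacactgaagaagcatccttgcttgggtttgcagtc

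The Sparc window held no match to any of the 6 motifs searched, none of which contains another. The Tnc window held GGGCGG at -167 and TATAAA at -126, counted from the annotated start. The Spp1 window held TATAAA at -211 and CCAAT on the other strand at -46. Over both strands, TATAAA was found in 3 of the 7 windows (Spp1, Thbs2 and Tnc), against 14.2% of 27025 promoters in the table. GGGCGG was found in 3 of the 7 (Tgfbi, Tnc and Vcan), against 35.9% of promoters, and CCAAT in 4 (Postn, Spp1, Thbs2 and Vcan), against 38%. The AP-1 motif TGANTCA (7.92% of promoters), the TEAD motif GGAATG (14.7%) and the CRE motif TGACGTCA (1.85%) were found in 0 of the 7. Of the genes called in UVA against control, Tnc and Tgfbi had the GC box, and Sparc, Postn and Spp1 did not. Fn1 and Thbs1, also called, had no window and could not be searched. A match is a description of the letters only.

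Genes whose pattern over the 9 libraries was most like that of a given gene were found by the root mean square difference of log2 CPM, each gene being set relative to its own control mean. For Fn1 the nearest of 8842 genes were Slc44a2 at 0.0491, Sbf2 at 0.0507 and Heg1 at 0.0521, whose log2 fold changes in UVA against control cells were -0.59, -0.57 and -0.65. For Thbs1, which had the greatest decrease in UVA against control with all libraries but not without UVA replicate 3, the nearest were Ptx3 at 0.139, Svep1 at 0.147 and Col1a1 at 0.203. Ptx3 encodes the secreted pattern recognition protein pentraxin 3, and its log2 fold change in UVA against control cells was -1.70 ± 0.12. Svep1 encodes a large secreted adhesion protein, at -1.79 ± 0.11, and Col1a1 the alpha 1 chain of collagen I, at -1.71 ± 0.07. Like Thbs1, all of these neighbours were lowest in the libraries numbered 3 of both irradiated groups, with Ptx3 at 5.09 FPKM among co-treated and 4.39 FPKM among UVA libraries. They were chosen by likeness over these same libraries, so the shared low is a description only. As for Thbs1, the SEs of Ptx3 and Svep1 are likely too small. Their UVA libraries spread from 4.39 to 7.39 FPKM for Ptx3 and from 1.74 to 2.99 FPKM for Svep1. For Tgfbi the nearest were Prr13 at 0.0782, Flcn at 0.0889 and Cspg4 at 0.0894. Tgfbi was taken because its increase in UVA against control, 0.31 with all libraries, stood just above the 0.30 of Spp1, an order that turned without UVA replicate 3 (0.15 for Tgfbi and 0.26 for Spp1), without control replicate 1 (0.25 and 0.32), without all libraries numbered 3 (0.21 and 0.26) and in both limma fits. Postn lay no nearer than 0.723 to any of the 8843 genes it was compared with, its nearest being Ly6c1. All of these had a mean of at least 10 CPM, so genes as low as Postn were not searched.

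Genes of the receptors through which cells read these proteins were called in both directions. For this list and those that follow, the shares over all tested genes in UVA against control were 14.6% called lower and 14.7% called higher. Of 7 tested receptor genes for fibronectin and tenascin, 3 fell and 1 rose in UVA against control cells, with a list median of -0.20. Itgb1, the beta 1 integrin chain shared by most fibronectin receptors, averaged 214 ± 0.102 FPKM in UVA and 220 ± 5.52 FPKM in control cells, with a log2 fold change of -0.02 ± 0.03 (edgeR adjusted p = 0.694). Itga5, the alpha chain of the classical fibronectin receptor, rose by 0.24 ± 0.05 (edgeR adjusted p = 0.000344), while Itgav, the alpha chain that binds fibronectin, osteopontin and other RGD ligands, fell by 0.20 on the log2 scale (edgeR adjusted p = 0.000248). The other 2 that fell were Itgb5, at -0.34, and Sdc4, a heparan sulfate proteoglycan of focal adhesions, at -0.20, both named after their values were seen.

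Of 8 tested receptors for the other proteins, 3 rose and 2 fell. Cd44, which binds hyaluronan and osteopontin, rose by 0.39 ± 0.04 (edgeR adjusted p = 4.36e-09), so the osteopontin gene and this receptor were both higher in UVA cells. Calr, a chaperone that also serves as a cell surface partner of thrombospondin 1, rose by 0.14 ± 0.04, and Lrp1, an endocytic receptor that clears thrombospondins, was at -0.25 ± 0.04 (edgeR adjusted p = 5.66e-05). The remaining calls, named after their values were seen, were Tlr4, which was higher by 0.20, and Cd36, a thrombospondin receptor, at -1.35 ± 0.16 (edgeR adjusted p = 1.35e-07). Cd36 averaged 0.913 ± 0.0966 FPKM in UVA and 2.35 ± 0.0629 FPKM in control cells. Cd36 was thus the receptor with the greatest change in both lists, in the same direction as its ligand gene Thbs1.

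Of 23 listed relatives of the 9 genes, 5 had enough counts to test, of which 2 fell and 1 rose. Fstl1, a SPARC family glycoprotein, averaged 43.0 ± 2.66 FPKM in UVA and 75.4 ± 1.54 FPKM in control cells, a log2 fold change of -0.80 ± 0.05 (edgeR adjusted p = 8.65e-14). Thbs3, a pentameric thrombospondin, averaged 1.98 ± 0.292 FPKM in UVA and 2.92 ± 0.202 FPKM in control cells, at -0.54 ± 0.12 (edgeR adjusted p = 0.000646), so of the 3 thrombospondin genes tested Thbs1 and Thbs3 fell and Thbs2 was not called. Tnxb, a tenascin that organises collagen fibrils, rose by 0.66 ± 0.11 (edgeR adjusted p = 2.67e-05), opposite to Tnc. Of 5 tested genes of the CCN family, small matricellular proteins that bind integrins, 3 fell and 0 rose in UVA against control cells. Ccn1 was at -0.26 ± 0.07 (edgeR adjusted p = 0.00903), Ccn4 at -1.10 ± 0.09 (edgeR adjusted p = 1.31e-10), and Ccn5, named after its value was seen, at -2.40 ± 0.50 from 10 counts in all in UVA and 56 in control libraries. Like Postn, Ccn5 passed the filter on low counts only through the control libraries, so its fall is given as a description. Ccn2, also called CTGF, averaged 27.1 ± 4.38 FPKM in UVA and 26.5 ± 1.03 FPKM in control cells and was not called (0.04; edgeR adjusted p = 0.749).

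Of 11 tested genes for proteases that cut these proteins, 7 fell and 1 rose in UVA against control cells, with a list median of -0.43. Adamts5, which cleaves versican and aggrecan, averaged 8.52 ± 1.23 FPKM in UVA and 18.2 ± 0.341 FPKM in control cells, a log2 fold change of -1.08 ± 0.07 (edgeR adjusted p = 2.24e-12). Mmp2, a gelatinase, was at -0.44 ± 0.04 (edgeR adjusted p = 5.22e-10), and its membrane-bound activator Mmp14 at -0.23 ± 0.04 (edgeR adjusted p = 3.63e-05). The 1 protease gene that rose was Mmp3, stromelysin 1, by 0.47 ± 0.17 (edgeR adjusted p = 0.0366), named after its value was seen. Its UVA and control libraries overlapped, at 3.72 ± 0.621 and 2.74 ± 0.699 FPKM. Mmp3 was not called in co-treated against control cells (edgeR adjusted p = 0.124).

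Of 13 genes of fibronectin assembly and focal adhesion, 4 fell and 2 rose, with a list median of -0.07, against 14.6% and 14.7% of all tested genes. Tln1, the talin that activates integrins, was at -0.07 and Parva, an actin-binding partner of integrin-linked kinase, at 0.04, neither of them called (edgeR adjusted p = 0.21 and 0.466). Tns3, a tensin of fibrillar adhesions, rose by 0.12 ± 0.04 (edgeR adjusted p = 0.0210). The other calls, named after their values were seen, were Pxn at 0.16 and, in the lower direction, Vcl at -0.29, Tns1 at -0.43, Tns2 at -0.77 and Tgm2, a fibronectin-binding transglutaminase, at -1.41 ± 0.50 from 18 counts in all in UVA and 50 in control libraries. Tgm2, like Postn, passed the filter on low counts only through the control libraries, so its fall is given as a description.

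Of 17 regulators known to act upstream of these genes, 5 rose and 5 fell, with a list median of -0.01. Wwtr1, which encodes the coactivator TAZ, rose by 0.37 ± 0.04 (edgeR adjusted p = 1.01e-07), its DNA-binding partner Tead1 was at -0.29 ± 0.05 (edgeR adjusted p = 1.38e-05), and Sp1 at -0.11 was not called (edgeR adjusted p = 0.0701). Among the TGF-beta genes, named after their values were seen, Tgfbr2, the ligand-binding receptor, was at -0.72 ± 0.06 (edgeR adjusted p = 3.72e-11) and Tgfbr1, its signalling partner, at 0.37 ± 0.07. The inhibitory Smad7 rose by 0.53 ± 0.09, Smad3 by 0.15 and Tgfb1 by 0.23, while Tgfb3 was at -0.25, Smad4 at -0.15 and Creb1 at -0.18.

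In the co-treated against UVA comparison edgeR called 0 genes in each of these 7 lists, against 0.0353% of all tested genes. In co-treated against control cells, 4 of 7 fibronectin and tenascin receptors fell and 1 rose, 3 of 8 other receptors fell and 3 rose, 3 of 5 relatives fell and 1 rose, and 3 of 5 CCN genes fell. Of the proteases 6 of 11 fell and 0 rose, of the assembly genes 4 of 13 fell and 1 rose, and of the upstream regulators 3 of 17 fell and 4 rose. Across all tested genes the shares in co-treated against control were 12.9% lower and 13% higher. Fstl1 was at -0.85 ± 0.05, Adamts5 at -1.12 ± 0.07 and Cd44 at 0.34 ± 0.04 in co-treated against control cells. Genes called lower here and not in UVA against control, named after their values were seen, were Itgb3 at -1.004, Cd47 at -0.16, Tnr at -1.64 and Lims1 at -0.13. None of them was called in co-treated against UVA. Tnr, 1 of the 3 relatives that fell, had 11 counts in all in co-treated and 38 in control libraries. Like Postn, Tnr passed the filter on low counts only through control, as did Ccn5 among the CCN genes, so their falls are given as a description. The co-treated against control results share the control libraries with those of UVA cells.

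**Figure D4:**
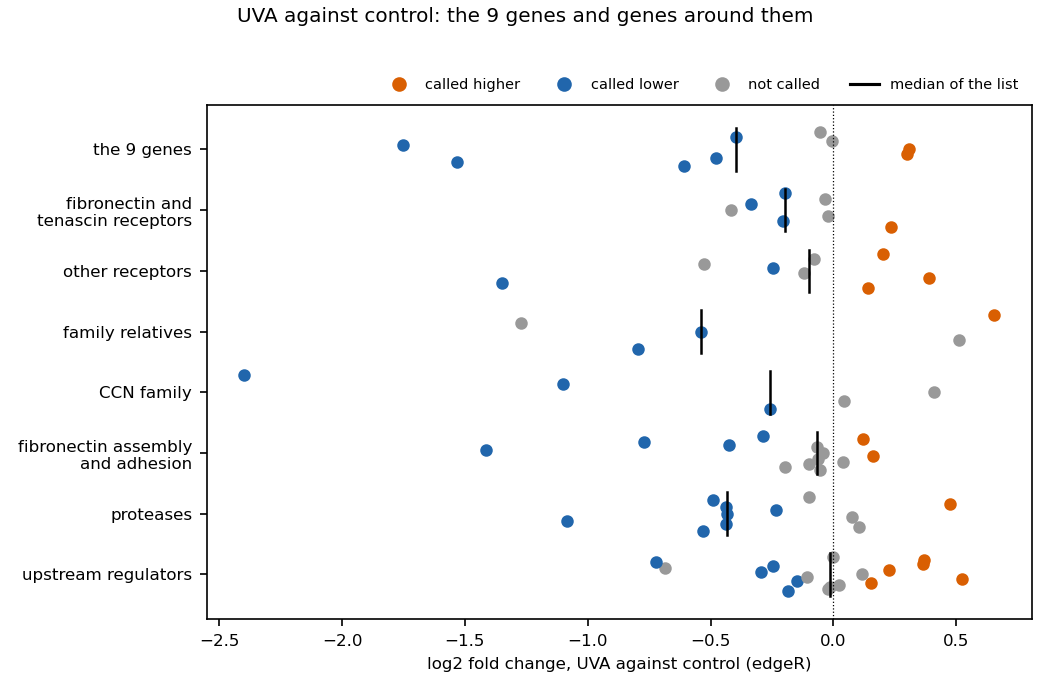
Log2 fold change in UVA against control cells (horizontal axis) for the tested genes of each list (rows), with the 9 genes at the top. Each point is 1 gene, coloured by whether it was called higher, called lower or not called by edgeR, and the vertical bar is the median of the list. The medians run from -0.54 for the family relatives to -0.01 for the upstream regulators, and the 9 genes have a median of -0.39 (-0.22 without Postn). The medians include genes that passed the filter on low counts only through control. These are Postn among the 9 genes, Tnr among the relatives, Ccn5 in the CCN family and Tgm2 among the assembly genes. The median of the 5 relatives therefore rests in part on Tnr, which had 15 counts in all in UVA and 38 in control libraries.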

How the data were processed

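RNA of NIH/3T3 cells was sequenced in 9 libraries, 3 per group. Per the file headers, the authors' deposited table holds for each Ensembl gene its coordinates, its exonic size, and, per library, the raw count and the FPKM. HISAT2 2.2.1, HTSeq 0.6.1, cutadapt 1.9.1, bcl2fastq 2.20.0.422 and build mm39 are named, per the submitters' processing notes, with no role. Neither strandedness nor the annotation release is given in the sources used here, so reads of genes that overlap on opposite strands may not be told apart. All per-sample columns were assigned to samples. Depth was 16298348 to 20862894 counts per library, and a value of few counts, such as those of Postn, has a wide interval.

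The deposited counts were tested with edgeR 4.0.16 in R 4.3.3 (filterByExpr with a minimum count of 10, TMM scaling, quasi-likelihood F-test, two-sided) in 1 fit of all 9 libraries on group, with Benjamini-Hochberg adjustment over 14151 genes. Before use, the fit was tried on simulated counts whose spread depended on level alone and was equal in all groups. That trial does not cover genes such as Thbs1, whose spread differed between groups. TMM factors ran from 0.992 to 1.01, and no libraries were duplicates. Levels are FPKM computed from the deposited counts, exonic sizes and library totals, with SD over libraries. CPM are counts divided by the TMM-scaled library total, times 1e6. Ratio tests were exact permutation tests; 6 were planned and 4 could be computed. Alternatives were other scaling, no filter, DESeq2 1.42.0, limma 3.58.1 on log2(FPKM + pseudocount), a fit of the groups compared, a replicate block, and each library left out.

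The members and gene lists were chosen with earlier results of these data known. All 9 members are described; of each list the 3 tested genes of highest mean CPM are named, and the 3 genes of at least 10 CPM most like Fn1 and the members with the greatest rise and fall. Genes outside this rule are said to be named after their values were seen. Promoters are from RefSeq.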

Additional observations from a re-analysis of the deposited data

How the results depend on the processing

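Of the 9 genes, 7 were called in UVA against control cells and 5 to 7 under the alternatives, with 6 without the libraries numbered 3 of all groups, chosen after seeing the data. The calls of Fn1, Sparc, Tnc, Thbs1 and Spp1 held in every alternative run, and those of Tgfbi and Postn did not, as given in the report; the log2 fold change of Tgfbi ran from 0.15 to 0.41 with 1 library left out. In co-treated against UVA cells 0 were called in every alternative, and in co-treated against control cells 7 in every alternative. Over the 27 fold changes and the alternatives in which a gene had a value, 486 values kept both their sign and their call state. Of the rest, 10 kept the sign and lost a call, 1 kept the sign and gained a call, and 15 turned sign, all of the last near 0 and not called. Leaving out 1 library gave log2 fold changes of -0.0413 to 0.0185 for Thbs2 in UVA against control (0.00332 with upper-quartile scaling) and -0.0477 to 0.00336 in co-treated against control. In co-treated against UVA it gave -0.0662 to 0.0157 for Tnc, -0.341 to 0.0862 for Thbs1, -0.0444 to 0.0230 for Sparc, -0.0412 to 0.0262 for Thbs2, and -0.388 to 0.146 for the log2 Thbs1 to Thbs2 ratio. The cause was not tested. Same-numbered libraries correlated at under 0.1, under the bar set for treating equal numbers as pairs. With the replicate block 7 of the 9 genes were called in each comparison with control and 0 in co-treated against UVA. Over all genes the block gave 4359 calls in UVA against control and 3931 in co-treated against control. Across the alternatives the calls over all genes ran from 2731 to 4359 and from 2386 to 3931 in these 2 comparisons. Over all genes the co-treated against UVA comparison gave 5 calls (4 higher and 1 lower), against 29 without the filter (20 higher and 9 lower), 10 with DESeq2, 19 with the replicate block and 0 with limma. It gave 22 without UVA replicate 3, 8 without UVA replicate 2, 1 without co-treated replicate 2, 2 without co-treated replicate 3, and 8 without the libraries numbered 3, which also lowered the calls over all genes to 2731 in UVA against control (4143 with all libraries) and to 2386 in co-treated against control (3652). In co-treated against UVA each library correlated best with its own number, a hint from the data only. Postn, at 0 to 29 counts per library, is limited by depth.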
